A study of Homo sapiens with 6 samples.

Results

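The cytoplasm and endosomes of human cells hold proteins that bind double-stranded RNA, and 10 genes of this system were examined by their gene symbol in the deposited table of 46427 genes. They were the sensors IFIH1, DHX58, TLR3 and EIF2AK2, the adaptors MAVS and TICAM1, the RNA editor ADAR, the kinase TBK1 and the transcription factors IRF3 and IRF7. All 10 symbols were found, 1 table entry each. RNA came from MDA-MB-231, a line of metastatic human breast cancer cells with mesenchymal character, with 3 cell preparations per group. The control group received control-siRNA (genotype label WT) and the other group received TAZ-siRNA (genotype label TAZ knockdown), a siGENOME siRNA reagent against WWTR1, the gene that encodes the transcriptional coactivator TAZ. Both groups had been transfected with siRNA, which is itself a short duplex RNA, and no untransfected cells were analysed here, so a response common to both groups cannot be seen in these data. The siRNAs differed between the groups, so a response to the TAZ-siRNA reagent itself cannot be told apart from an effect of lower WWTR1. The RNA was from bulk cultures, in which fewer cells carrying a transcript and less of it per cell cannot be told apart.

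Double-stranded RNA is a mark of viral replication, and it also forms from a cell's own repeats. RIG-I and MDA5 signal through MAVS on mitochondria, and TLR3 signals through TICAM1 (TRIF) in endosomes. Both routes reach the kinase TBK1 and the factors IRF3 and IRF7, which switch on interferon genes, and interferon in turn raises most of the sensors. PKR, encoded by EIF2AK2, halts translation on duplex RNA through eIF2, and ADAR edits adenosines in duplexes so that the cell's own RNA is less visible to the sensors.

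The libraries held 48307548 to 71749634 estimated counts in all, and levels are given in CPM, which divides each count by its TMM-scaled library total. The smallest level distinguishable from 0, taken as 3 counts, was 0.0418 to 0.0621 CPM. WWTR1 stood at 192, 189.8 and 190.0 CPM with control-siRNA and at 17.3, 17.0 and 15.1 CPM with TAZ-siRNA, 8.65% of control. The line's markers VIM, CD44, KRT8 and KRT18 lay between 473 and 3734 CPM, while ESR1 and PGR were at most 0.0895 and 0.0300 CPM. ERBB2, a receptor gene on the same marker list, lay higher, between 44.9 and 62.6 CPM. KRT19 was at 62.3 to 64.7 CPM with control-siRNA and 77.6 to 86.8 CPM with TAZ-siRNA. EPCAM and CDH1 were at most 1.59 and 0.578 CPM. In a list of 7 immune-cell markers, PTPRC and CD3E were at 0 counts in every library. The summed list was 73.2 to 81.0 CPM with control-siRNA and 53.4 to 62.8 CPM with TAZ-siRNA, of which CD68, a lysosomal protein gene, made up 72.2 to 79.8 and 51.8 to 61.2 CPM. On the second principal component, which held 17.7% of the variance, TAZ-siRNA replicate 3 stood away from the remaining libraries, and results that depend on it are given with and without it.

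IFIH1, MAVS and TBK1 were higher after TAZ knockdown, by 1.41-fold, 1.2-fold and 1.21-fold, and the call of MAVS was lost in 5 of the 6 fits that left out 1 library. TLR3, TICAM1 and IRF7 had lower means and did not pass the test. DHX58, EIF2AK2, ADAR and IRF3 had higher means and did not pass it either. By the quasi-likelihood test of edgeR, Benjamini-Hochberg adjusted over all 16966 genes tested, 3 of the 10 members passed an adjusted p of 0.05, all 3 of them higher, where 22.1% of all genes tested passed (11.9% higher and 10.2% lower). The members' median log2 fold change was 0.16, against -0.0054 over all genes tested, and no member changed by 1.5-fold or more. At an unadjusted p under 0.05, 6 members were higher and 1 was lower. The share of all genes at that threshold was not counted and is at least the 22.1% above. For 6 members no control library overlapped the knockdown libraries in CPM, 5 of them higher and 1 lower, which held for 39.6% of all genes (20% higher and 19.6% lower). Without TAZ-siRNA replicate 3, 7 members passed, 6 higher and 1 lower, while the share of all genes called was then 33.7% (17.6% higher and 16.1% lower). Without any other library 2 or 3 members passed, where 11.2% to 15.3% of all genes did. DESeq2 called 5 members, all higher, where 27.2% of the genes it gave an adjusted p were called (14.4% higher).

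**Figure D1:**
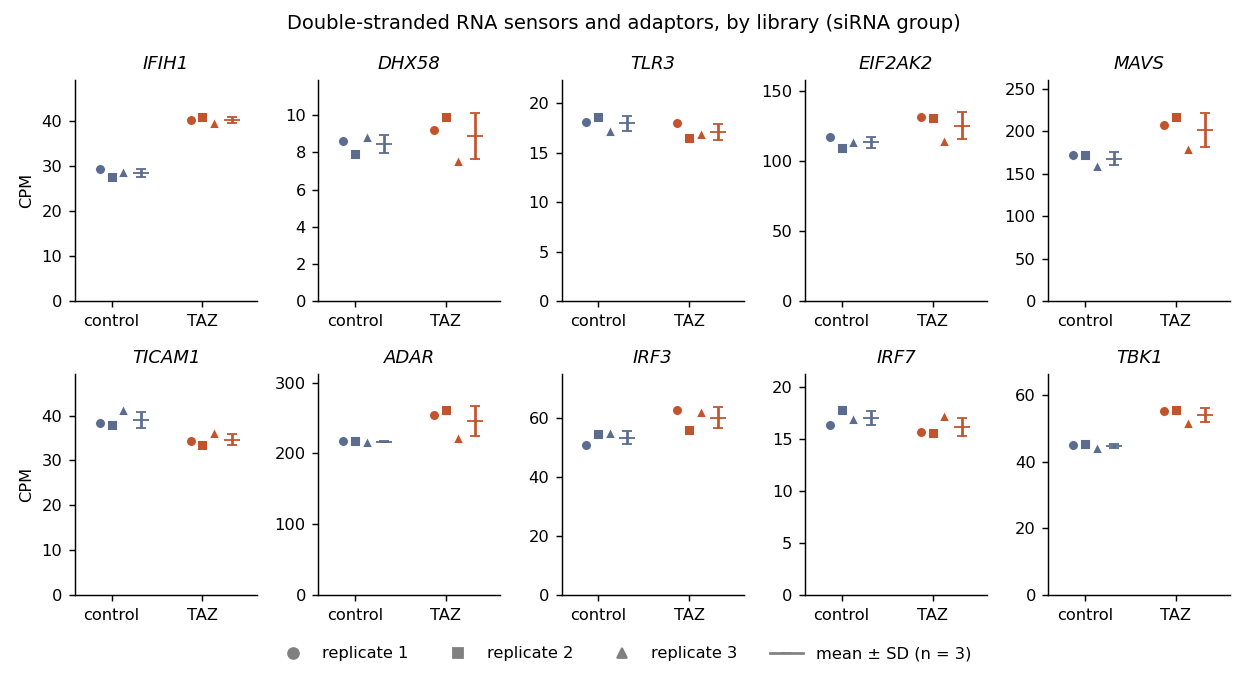
Level of each of the 10 genes in CPM (linear axis from 0) in every library of the control-siRNA (control) and TAZ-siRNA (TAZ) groups, with circles, squares and triangles for replicates 1, 2 and 3 and a bar for the mean ± SD (n = 3). IFIH1, MAVS and TBK1 sit higher in all 3 TAZ-siRNA libraries, and the triangle of TAZ-siRNA replicate 3 lies nearest to the controls for MAVS, ADAR and EIF2AK2.

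**Figure D2:**
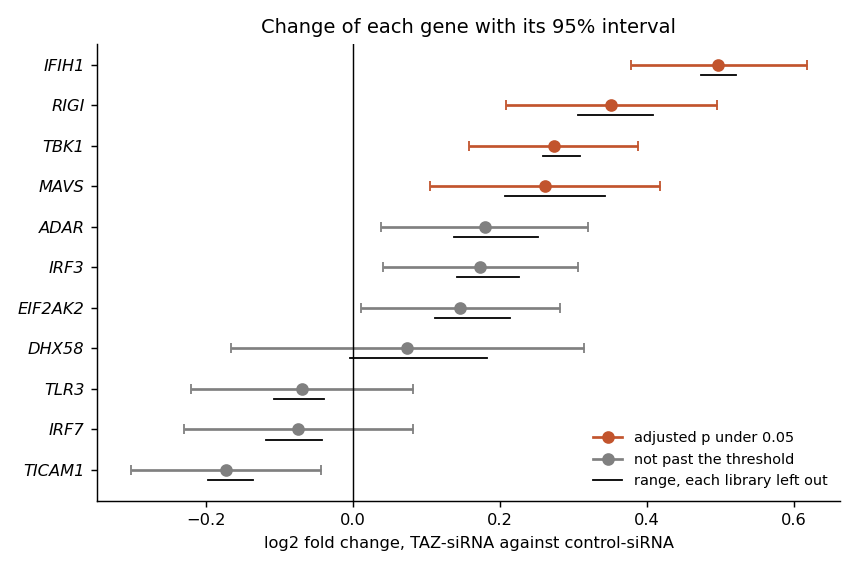
Log2 fold change of the 10 genes and RIGI, TAZ-siRNA against control-siRNA, with the 95% interval from edgeR's quasi-likelihood fit. Black lines below each point span the 6 fits that each left out 1 library, and orange marks an adjusted p under 0.05.

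Many of these genes are known interferon targets, and TAZ acts on DNA through TEAD proteins, so their promoters were searched for the letters both kinds of factor recognise. RefSeq windows on GRCh38.p14, from 250 bases before to 50 bases after a start site, were matched for 7 of the 10 members (9 windows), with none for IRF3, IRF7 and DHX58. Each window of 300 bases was searched on both strands for the core of the interferon-stimulated response element (GAAANNGAAA, or TTTCNNTTTC on the other strand) and for the TEAD motif (CATTCC, or GGAATG). No match to one motif overlaps a match to the other in these windows. The interferon element core was found in 3 members, IFIH1, EIF2AK2 and TLR3, in the only window of each, and in 3.58% of all 35093 windows. The ADAR windows belong to the starts 154608797, 154627971 and 154627997. None covers the start 154608186 of NM_001111, which encodes the interferon-induced form p150, so that promoter was not searched. The TEAD motif was found in 2 members, TBK1 and TLR3, in the only window of each, and in 14% of all windows. IFIH1, the member with the largest change, held 3 matches to the interferon element, 2 of which overlap. The lines below give the matches in capitals, 5′ to 3′ on the gene's own strand, with up to 30 bases on each side, for the members that hold one.
IFIH1 (chr2:162318798-162318873, minus strand, matches beginning 159 and 153 bases before the start): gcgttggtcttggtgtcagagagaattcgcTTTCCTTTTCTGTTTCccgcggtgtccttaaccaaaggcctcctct
IFIH1 (chr2:162318685-162318735, minus strand, 21 bases before the start): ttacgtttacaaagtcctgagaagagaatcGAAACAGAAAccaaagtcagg
EIF2AK2 (chr2:37156977-37157016, minus strand, beginning 6 bases before the start and crossing it): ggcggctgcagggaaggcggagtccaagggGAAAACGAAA
TLR3, interferon element (chr4:186069122-186069161, plus strand, beginning 4 bases before the start and crossing it): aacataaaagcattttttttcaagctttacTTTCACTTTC
TLR3, TEAD motif (chr4:186069081-186069146, plus strand, 45 bases before the start): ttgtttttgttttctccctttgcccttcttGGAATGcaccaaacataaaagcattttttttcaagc
TBK1, TEAD motif (chr12:64451885-64451950, plus strand, 205 bases before the start): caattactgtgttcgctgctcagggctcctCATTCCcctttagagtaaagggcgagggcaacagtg
A match describes letters in a window and does not show that a factor binds there.

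IFIH1 (gene 64135, chr2:162267074-162318684, GRCh38) encodes MDA5, the RIG-I-like receptor for long duplexes. Its level was 29.4, 27.6 and 28.7 CPM with control-siRNA and 40.3, 41.0 and 39.6 CPM with TAZ-siRNA. Every knockdown library was above every control library, by far more than replicates differed. The mean rose from 28.5 ± 0.925 to 40.3 ± 0.725 CPM (mean ± SD of 3 libraries, as for each pair of values below), for a log2 fold change of 0.50 (SE 0.054, 95% interval 0.38 to 0.62, adjusted p = 0.000254). It was the largest change among the members, and it passed in all 6 fits that left out 1 library, with log2 fold changes of 0.47 to 0.52. Its promoter window is the one with 3 matches shown above.

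RIG-I, which recognises short duplexes with a 5′ triphosphate, is encoded by RIGI (gene 23586, chr9:32455302-32526196). It is given for comparison, as it signals through MAVS like MDA5. RIGI stood at 213, 192 and 195 CPM with control-siRNA and at 271, 258 and 236 CPM with TAZ-siRNA. The groups did not overlap, and the mean rose from 199.9 ± 11.1 to 255 ± 17.9 CPM, a log2 fold change of 0.35 (SE 0.065, adjusted p = 0.00402). Its promoter window held neither motif.

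DHX58 (gene 79132, chr17:42101404-42112721) encodes LGP2, a relative that lacks the signalling domains and tunes the other receptors. It stood at 8.61, 7.92 and 8.81 CPM with control-siRNA and at 9.22, 9.92 and 7.54 CPM with TAZ-siRNA. TAZ-siRNA replicate 3 was the lowest of the 6 libraries and replicate 2 the highest, so the groups overlapped. The log2 fold change was 0.07, with a 95% interval of -0.17 to 0.31 (adjusted p = 0.672), and it was -0.0042 without TAZ-siRNA replicate 2. Of the 3 RIG-I-like receptors, the 2 that signal passed the test and LGP2 did not, but the difference between them was not tested.

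TLR3 (gene 7098, chr4:186069156-186088073), the endosomal sensor, stood at 18.1, 18.6 and 17.2 CPM with control-siRNA and at 18.05, 16.5 and 16.8 CPM with TAZ-siRNA. The groups overlapped, since TAZ-siRNA replicate 1 lay among the controls. The log2 fold change was -0.07 with a 95% interval of -0.22 to 0.08 (adjusted p = 0.509), which leaves room for a change of either sign smaller than that of IFIH1. It did not pass in any of the 6 fits without 1 library.

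EIF2AK2 (gene 5610, chr2:37099210-37157065), the gene of PKR, stood at 117, 109 and 113 CPM with control-siRNA and at 132, 130.4 and 114 CPM with TAZ-siRNA. TAZ-siRNA replicate 3 fell within the control range and the other 2 knockdown libraries lay above it. The mean was 113 ± 3.99 CPM with control-siRNA and 125 ± 9.83 CPM with TAZ-siRNA, a log2 fold change of 0.15 (95% interval 0.011 to 0.28, adjusted p = 0.113). Without TAZ-siRNA replicate 3 it was 0.21 (adjusted p = 0.00137), and corrected for length and GC content it was 0.076 (adjusted p = 0.233).

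The fold changes of the 2 adaptors stood on opposite sides of 0. MAVS (gene 57506, chr20:3846799-3876123), the mitochondrial adaptor of MDA5 and RIG-I, was at 173, 172 and 159.7 CPM with control-siRNA and at 207, 217 and 179 CPM with TAZ-siRNA. All 3 knockdown libraries were above all 3 controls, with replicate 3 the nearest to them. The mean rose from 168 ± 7.19 to 201 ± 19.8 CPM, a log2 fold change of 0.26 (SE 0.071, 95% interval 0.10 to 0.42, adjusted p = 0.024). Of the 6 fits without 1 library, only that without TAZ-siRNA replicate 3 kept the call (log2 fold change 0.34, adjusted p = 5.9e-05), and leaving out any other library gave adjusted p values of 0.065 to 0.107. Corrected for length and GC content, the log2 fold change was 0.14 (adjusted p = 0.0168), and limma on log2(FPKM + 1) gave an adjusted p of 0.0764.

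TICAM1 (gene 148022, chr19:4815932-4831712), the adaptor of TLR3, was at 38.3, 37.9 and 41.1 CPM with control-siRNA and at 34.4, 33.5 and 36.1 CPM with TAZ-siRNA. It was the member whose 3 knockdown libraries all lay below the controls. The mean was 39.1 ± 1.78 CPM with control-siRNA and 34.7 ± 1.29 CPM with TAZ-siRNA, a log2 fold change of -0.17 (95% interval -0.30 to -0.04) that did not pass (adjusted p = 0.0566). Without TAZ-siRNA replicate 3 it was -0.20 and passed (adjusted p = 0.0139), and corrected for length and GC content it passed as well (-0.18, adjusted p = 0.0319). The intervals of the fold changes of TICAM1 and MAVS do not overlap, but the difference between them was not tested in the fit.

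TBK1 (gene 29110, chr12:64452105-64502114) phosphorylates IRF3 and IRF7 below both adaptors. It stood at 44.9, 45.3 and 43.9 CPM with control-siRNA and at 55.1, 55.3 and 51.5 CPM with TAZ-siRNA. The groups were well apart, with replicate 3 the lowest library of each. The mean rose from 44.7 ± 0.692 to 54.0 ± 2.14 CPM, a log2 fold change of 0.27 (SE 0.052, 95% interval 0.16 to 0.39, adjusted p = 0.00494). All 6 fits without 1 library kept the call, with log2 fold changes of 0.26 to 0.31.

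IRF3 and IRF7 are the factors that TBK1 activates, IRF3 being present at rest and IRF7 mostly made in response to interferon. IRF3 (gene 3661, chr19:49659569-49665875) was at 50.7, 54.4 and 54.7 CPM with control-siRNA and at 62.4, 55.8 and 61.8 CPM with TAZ-siRNA. The groups did not overlap, but TAZ-siRNA replicate 2 was little above the highest control. The log2 fold change was 0.17 (95% interval 0.04 to 0.31, adjusted p = 0.0614), and it passed without TAZ-siRNA replicate 2 (0.23, adjusted p = 0.028) and without TAZ-siRNA replicate 3 (0.16, adjusted p = 0.0474). DESeq2 gave it an adjusted p of 0.049, and correcting for length and GC content gave 0.235 on the log2 scale (adjusted p = 0.00988). IRF3 shares 1042 bases with BCL2L12, and whether the counting used strand is not stated, so reads of the shared stretch may count for either gene. IRF7 (gene 3665, chr11:612555-615999) was at 16.4, 17.7 and 16.9 CPM with control-siRNA and at 15.6, 15.6 and 17.2 CPM with TAZ-siRNA. Its groups overlapped, and the log2 fold change was -0.08 with a 95% interval of -0.23 to 0.08 (adjusted p = 0.49).

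ADAR (gene 103, chr1:154582057-154627997) makes a constitutive nuclear editor, p110, and a longer interferon-induced form, p150, from different start sites. Its gene level was 217, 217 and 216 CPM with control-siRNA and 254, 261 and 221 CPM with TAZ-siRNA. The control libraries were nearly equal, and TAZ-siRNA replicate 3 was close to them while the other 2 lay well above. The mean was 217 ± 0.918 CPM with control-siRNA and 245 ± 20.9 CPM with TAZ-siRNA, a log2 fold change of 0.18 (adjusted p = 0.0684). Without TAZ-siRNA replicate 3 it was 0.25 and passed (adjusted p = 0.000453), DESeq2 gave an adjusted p of 0.0295, and correcting for length and GC content gave 0.077 (adjusted p = 0.212).

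Levels can be compared between genes only per transcript length, for which the deposited FPKM values serve. With control-siRNA, ADAR (29.99 ± 0.424 FPKM) and IRF3 (29.4 ± 1.42 FPKM) were the most abundant members, and their ranges overlapped. TICAM1 (13.01 ± 0.554), TBK1 (12.99 ± 0.264), MAVS (12.8 ± 0.594) and EIF2AK2 (11.6 ± 2.22) followed, each overlapping its neighbour in the order. IRF7 (7.73 ± 0.389 FPKM) and IFIH1 (7.12 ± 0.183 FPKM) came next with ranges that did not overlap, and DHX58 (2.95 ± 0.151 FPKM) and TLR3 (2.67 ± 0.126 FPKM) were the lowest and overlapped. With TAZ-siRNA the order from the top was ADAR (34.1 ± 3.68 FPKM), IRF3 (33.0 ± 2.25), TBK1 (15.8 ± 1.15), MAVS (15.5 ± 1.91), EIF2AK2 (12.3 ± 1.59), TICAM1 (11.6 ± 0.232), IFIH1 (10.1 ± 0.435), IRF7 (7.43 ± 0.221), DHX58 (3.15 ± 0.531) and TLR3 (2.56 ± 0.171). There ADAR and IRF3 overlapped, as did each neighbouring pair from TBK1 to TICAM1, and DHX58 and TLR3, while the other neighbours in the order did not. IFIH1 and IRF7 exchanged places between the groups, without overlap in either. RIGI, at 38.6 ± 1.96 FPKM with control-siRNA and 49.6 ± 4.83 FPKM with TAZ-siRNA, was above every member in both groups.

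**Figure D3:**
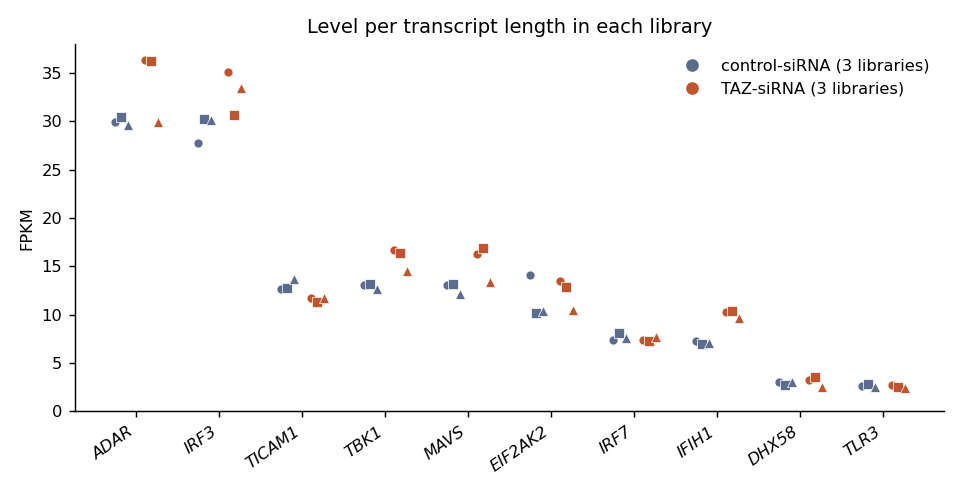
FPKM of the 10 genes in each library (linear axis from 0), ordered by their mean with control-siRNA, with circles, squares and triangles for replicates 1, 2 and 3. ADAR and IRF3 sit near 30 FPKM, and IFIH1 passes IRF7 in the TAZ-siRNA libraries.

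The transcripts of a gene can encode different proteins, but single transcripts were measured with little precision, with a biological coefficient of variation of 84.4% against 8.04% for genes. The 10 genes had 67 transcripts, of which 61 were tested. At an adjusted p of 0.05, 0 passed edgeR's quasi-likelihood test, where 0.017% of all 64638 transcripts tested passed. At an unadjusted p under 0.05 there were 4, and the share of all transcripts at that threshold was not counted. The lowest adjusted p was 0.252, for the transcript of IFIH1 (NM_022168), which had a log2 fold change of 0.51. NM_001111, a transcript of ADAR that encodes p150, held 14.5, 11.1 and 30.9% of the gene's count with control-siRNA and 7.47, 58.0 and 10.8% with TAZ-siRNA. A single knockdown library, replicate 2, was thus far above the rest, and the groups overlapped. The 6 ADAR transcripts that begin at 154608186 to 154608797 held 63.4, 49.5 and 66.9% with control-siRNA and 35.2, 82.1 and 52.6% with TAZ-siRNA, again overlapping (exact permutation test, 2-sided, p = 1). In DHX58 the share of NM_024119 was 70.2, 75.5 and 74.1% with control-siRNA and 61.3, 41.1 and 52.7% with TAZ-siRNA. The predicted transcript XM_017025059 held 4.36, 17.2 and 12.4% with control-siRNA and 38.7, 22.1 and 33.7% with TAZ-siRNA. Neither share overlapped between the groups, at an exact permutation p of 0.1 each, the smallest that 3 against 3 libraries allow. In ADAR the minor transcript NM_001025107 held 0.739, 1.21 and 0.659% with control-siRNA and 6.84, 2.47 and 4.76% with TAZ-siRNA, with no overlap (exact permutation p = 0.1), and its count had a log2 fold change of 2.62 that did not pass (adjusted p = 0.292). XM_011509061, a predicted ADAR transcript, held 0.525, 0.555 and 0.430% against 1.76, 0.918 and 1.27%, again with no overlap (exact permutation p = 0.1). In IRF3 the share of XM_024451494 was lower with TAZ-siRNA, at 12.3, 13.4 and 13.3% against 19.6, 16.4 and 15.0%. These 5 transcripts were picked out after their values were seen. Of the 58 tested transcripts of members with 2 or more of them, the shares of 9 did not overlap, 2 in DHX58, 2 in ADAR and 5 in IRF3, which held for 11.7% of the 58068 such transcripts of all genes.

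Beside the members stood 101 genes of the same system in 6 lists by role, 94 of which were tested. Of these, 36 passed edgeR's test, 25 higher and 11 lower (22.1% of all genes passed), with a median log2 fold change of 0.03. Without control-siRNA replicate 2, control-siRNA replicate 3 or TAZ-siRNA replicate 1 the count was 20, 23 and 19, where 11.2%, 12.1% and 11.9% of all genes passed. The number of lower calls was 16 without TAZ-siRNA replicate 3 and 5 or 6 without any of the other libraries, and higher calls numbered 13 when TAZ-siRNA replicate 1 was left out and 15 when control-siRNA replicate 2 was.

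Among 19 tested genes of other duplex-RNA binding proteins, 6 rose and 2 fell, and the median log2 fold change was 0.02. Of all genes, 22.1% passed (11.9% higher and 10.2% lower). OAS2, which makes the activator of RNase L on duplex RNA, rose from 6.61 ± 0.121 to 11.9 ± 0.173 CPM (log2 fold change 0.85, adjusted p = 0.000112). OASL, a relative without that activity, rose from 93.7 ± 4.36 to 131 ± 5.04 CPM (log2 fold change 0.49, adjusted p = 0.000239). ZNFX1, a helicase of the mitochondrial surface, rose from 153 ± 1.38 to 184 ± 7.24 CPM (log2 fold change 0.27, adjusted p = 0.00312), and NLRP1, an inflammasome receptor, fell from 34.5 ± 2.28 to 23.7 ± 1.803 CPM (log2 fold change -0.54, adjusted p = 0.00078). These 4 calls and that of RIGI held without any 1 library. TRIM25, the list's other lower call, stood at 188 ± 8.07 and 157 ± 7.90 CPM (log2 fold change -0.26, adjusted p = 0.00731). It kept the call in 5 of the 6 fits without 1 library.

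The relay list holds the kinases, ubiquitin ligases and factors between the adaptors and the interferon genes. Of its 24 tested genes 4 rose and 2 fell (22.1% of all genes passed), with a median log2 fold change of 0.003. The number called was 3 without control-siRNA replicate 2, control-siRNA replicate 3 or TAZ-siRNA replicate 1, where 11.2%, 12.1% and 11.9% of all genes passed. IRF9, the DNA-binding part of the interferon-activated complex ISGF3, rose from 38.8 ± 1.34 to 53.9 ± 1.62 CPM (log2 fold change 0.47, adjusted p = 0.000327). RIPK1, a kinase that binds TICAM1, rose from 50.3 ± 0.491 to 58.8 ± 1.66 CPM (log2 fold change 0.23, adjusted p = 0.00892). TRAF2, a ubiquitin ligase adaptor, fell from 33.8 ± 0.700 to 28.4 ± 0.905 CPM (log2 fold change -0.25, adjusted p = 0.00869), a call lost without control-siRNA replicate 2 (adjusted p = 0.0589). NFKB1, an NF-kappaB subunit, fell from 92.0 ± 2.69 to 79.8 ± 3.19 CPM (log2 fold change -0.20, adjusted p = 0.0149). Its call held without control-siRNA replicate 2 or TAZ-siRNA replicate 3, and leaving out control-siRNA replicate 1 or 3 or TAZ-siRNA replicate 1 or 2 gave adjusted p values of 0.0528 to 0.0726.

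Of 19 tested brakes on the pathway, 4 rose and 2 fell (22.1% of all genes passed), and the median log2 fold change was 0.02. The number called was 2 without TAZ-siRNA replicate 1 and 3 under limma. Of all genes, 11.9% passed without that library, and 16.6% or 16.7% under limma. TNFAIP3 (A20), a deubiquitinase that dampens NF-kappaB and TBK1 signalling, fell from 38.4 ± 1.72 to 30.4 ± 2.31 CPM (log2 fold change -0.34, adjusted p = 0.00593). SARM1, known to inhibit TICAM1, stood at 3.27 ± 0.150 and 5.19 ± 1.01 CPM (log2 fold change 0.67, adjusted p = 0.00997), and NLRC5, a large receptor of the NLR family, at 5.75 ± 0.233 and 9.34 ± 2.21 CPM (log2 fold change 0.70, adjusted p = 0.0101). Both of these calls were lost without TAZ-siRNA replicate 1 (adjusted p = 0.0542 and 0.0528) and under limma on log2(FPKM + 1) (adjusted p = 0.0584 and 0.192). SARM1 shares 9408 bases with SLC46A1, whose reads may count for it. TREX1, a DNA exonuclease, was at 1.55 ± 0.251 and 0.719 ± 0.138 CPM (log2 fold change -1.11, adjusted p = 0.00561). That value is uncertain, since TREX1 shares 1816 bases with the read-through gene ATRIP-TREX1, whose counts ran from 0 to 336. PCBP2, which directs the breakdown of MAVS, stood at 482 ± 12.5 and 462 ± 24.9 CPM and did not pass (adjusted p = 0.499).

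The interferon genes themselves had few or no counts in either group. IFNB1, IFNA1, IFNK and IFNE had 0 counts in every library, which allows up to 0.0418 to 0.0621 CPM per library. IFNL1, a type III interferon, had 24, 36 and 28 counts with control-siRNA and 61, 45 and 54 counts with TAZ-siRNA, with no overlap. Its log2 fold change was 0.85 (adjusted p = 0.0359), and the call was lost in each of the 6 fits without 1 library (log2 fold changes 0.65 to 0.97). IFNL2 and IFNL3, which are near-identical copies of each other, had at most 9 and 10 counts in a library. Of 13 genes of interferons and their receptors, 7 were tested, of which 5 rose and 1 fell (22.1% of all genes passed). The count of 6 dropped to 1 without control-siRNA replicate 1 or 2 or TAZ-siRNA replicate 1 and to 2 without TAZ-siRNA replicate 2. It was 3 without control-siRNA replicate 3 or under limma. Of all genes, 11.2% to 15.3% passed without 1 of these libraries and 16.6% or 16.7% under limma. The receptor chains IFNLR1, IFNAR2, IFNAR1 and IL10RB all passed with higher levels. IFNLR1, the specific chain for type III interferon, rose from 11.1 ± 0.322 to 15.3 ± 1.496 CPM (log2 fold change 0.47, adjusted p = 0.00361) in all 6 fits without 1 library.

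The chains of the type I receptor were higher by less. IFNAR2 stood at 20.1 ± 0.787 and 24.3 ± 1.51 CPM (log2 fold change 0.27, adjusted p = 0.016), and the call was lost without control-siRNA replicate 1 or 2 or TAZ-siRNA replicate 1 (adjusted p 0.058 to 0.081). IFNAR1 stood at 57.9 ± 2.28 and 66.2 ± 2.53 CPM (log2 fold change 0.19, adjusted p = 0.0267), and only the fit without TAZ-siRNA replicate 3 kept the call, the others giving adjusted p values of 0.0632 to 0.116. IL10RB, shared by the type III interferon and interleukin-10 receptors, stood at 39.3 ± 1.71 and 44.7 ± 0.832 CPM (log2 fold change 0.19, adjusted p = 0.0315), and it kept the call only without control-siRNA replicate 3 or TAZ-siRNA replicate 3 (other fits 0.0642 to 0.126). Under limma on log2(FPKM + 1), IFNAR2 and IFNAR1 did not pass (adjusted p = 0.0899 and 0.0784). JAK1, a receptor kinase and the list's lower call, stood at 168 ± 1.93 and 153 ± 4.30 CPM with no overlap (log2 fold change -0.14, adjusted p = 0.0493), kept the call in 1 of the 6 fits without 1 library, and was named after its values were seen. The receptor kinase TYK2 stood at 71.5 ± 0.515 and 69.5 ± 5.08 CPM (adjusted p = 0.674).

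Of 8 genes that IRF3 and interferon switch on, 4 rose and 0 fell, with a median log2 fold change of 0.37. Of all genes, 22.1% passed (11.9% higher and 10.2% lower). MX1, a GTPase that blocks virus nucleocapsids, rose from 27.0 ± 1.14 to 40.2 ± 1.22 CPM (log2 fold change 0.58, adjusted p = 0.000179). RSAD2 (viperin) rose from 1.43 ± 0.437 to 3.84 ± 0.748 CPM (log2 fold change 1.42, adjusted p = 0.0019). IFIT2 and IFIT3, which bind viral RNA and each other, rose from 207 ± 4.14 to 274 ± 23.3 CPM and from 184 ± 5.46 to 231 ± 10.0 CPM (log2 fold changes 0.41 and 0.33, adjusted p = 0.00188 and 0.00191). All 4 held without any 1 library. ISG15, the ubiquitin-like modifier that interferon induces strongly, stood at 159.7 ± 9.98 and 166 ± 14.6 CPM (adjusted p = 0.621), although corrected for length and GC content it passed (log2 fold change 0.18, adjusted p = 0.008). IFIT1, CCL5 and CXCL10 did not pass edgeR's test either (adjusted p = 0.196, 0.086 and 0.164). Their log2 fold changes were 0.10, 0.87 and -0.70, so CXCL10 was lower, and CCL5 and CXCL10 had mean levels under 1 CPM.

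Below PKR, 17 genes of the eIF2 axis were tested, and 2 rose and 4 fell, with a median log2 fold change of -0.01. The number called was 3 without control-siRNA replicate 1, 2 without control-siRNA replicate 2 or 3 or TAZ-siRNA replicate 1, and 9 without TAZ-siRNA replicate 3, with the replicate block or corrected for length and GC content. Of all genes, 22.1% passed in the reported fit and 11.2% to 13.1% in the fits that gave 2 or 3. In the fits that gave 9, the shares of all genes were 33.7%, 30.2% and 27.1%. EIF2B1, a subunit of the exchange factor that eIF2 phosphorylation blocks, fell from 77.5 ± 1.45 to 65.5 ± 1.19 CPM (log2 fold change -0.25, adjusted p = 0.00442). PPP1R15B, a subunit of the phosphatase that restores eIF2, rose from 161 ± 8.06 to 196 ± 8.74 CPM (log2 fold change 0.28, adjusted p = 0.00544). Among the sister kinases of PKR, EIF2AK3 (PERK) stood at 55.9 ± 7.77 and 72.5 ± 4.54 CPM (log2 fold change 0.37, adjusted p = 0.0169), a call lost without control-siRNA replicate 2 or 3 or TAZ-siRNA replicate 1 (adjusted p 0.0551 to 0.0766). EIF2AK1 (HRI) stood at 138 ± 2.72 and 124 ± 2.26 CPM (log2 fold change -0.17, adjusted p = 0.0232), and only the fit without TAZ-siRNA replicate 3 kept that call, the others giving 0.0526 to 0.125 and limma on log2(FPKM + 1) giving 0.156. ATF4, the factor translated when eIF2 is phosphorylated, stood at 790.0 ± 17.6 and 782 ± 98.1 CPM (adjusted p = 0.926). EIF2B1, EIF2AK1 and ATF4 share 538, 1588 and 3641 bases with DDX55, AIMP2 and MIEF1, so reads of those stretches may count for either gene of a pair.

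**Figure D4:**
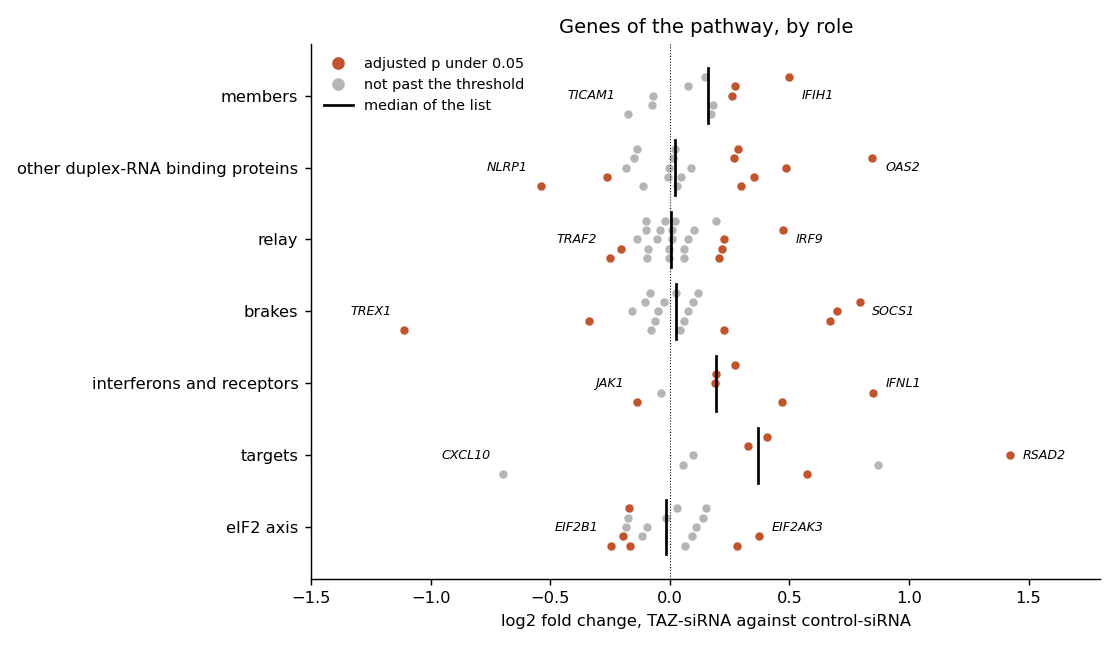
Log2 fold change of each tested gene of the members and the 6 lists by role, TAZ-siRNA against control-siRNA, with orange for an adjusted p under 0.05 and a black line for the median of each list. The targets and the members have the medians 0.37 and 0.16, the interferons and receptors 0.19, and the other lists lie near 0.

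The genes whose pattern over the 6 libraries was most like that of IFIH1 were sought among 13591 genes, by the Euclidean distance between log2 CPM values centred on each gene's mean. The nearest were PPP1R10, a regulatory subunit of protein phosphatase 1 in the nucleus, at a distance of 0.0531 (Pearson r 0.997), ZBTB46, a zinc finger transcription factor, at 0.0657 (r 0.995), and KLHL4, a kelch protein, at 0.0681 (r 0.997). Their log2 fold changes were 0.52, 0.48 and 0.46, close to the 0.50 of IFIH1. These correlations describe 6 libraries in 2 groups and mostly carry the difference between the groups.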

How the data were processed

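The authors trimmed paired reads of stranded mRNA libraries, aligned them with HISAT2 to GRCh38 and used StringTie to quantify RefSeq genes and transcripts. The submitters' processing notes also list Bowtie 0.12.2 and a mouse build, which the methods do not. The deposited estimated counts are whole numbers derived by the authors from read coverage, the deposited FPKM are per transcript length and library size, as computed by the authors, and the TPM, also made by the authors, have a common total and served only to check the order of levels. Strand use in counting was not given in the sources used here, and 0 value columns lacked a sample.

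Groups came from the labels, and replicate numbers from the sample descriptions and value columns. The sample titles number the same libraries rep3 to rep5 in each group, so replicate 3 here is not the library titled rep3. Genes were compared with the quasi-likelihood test of edgeR 4.0.16 in R 4.3.3, using the deposited counts, TMM scaling, filterByExpr (minimum count 10) and robust dispersions, and p-values were adjusted by Benjamini-Hochberg across the 16966 genes tested. All 10 members passed the filter. Alternatives were DESeq2 1.42.0, other size factors and filters, the replicate number as a block, a spline correction (5 degrees of freedom) for GC content and length, which 89.7% of tested genes had, limma 3.58.1 on log2 FPKM with a pseudocount of 1 or 0.1, a threshold of 0.01 and leaving out each library. P-values measure the spread between 3 cell preparations per group. Replicates of a group differed by more than sampling noise (chi-square per degree of freedom 6.77 to 41.8), and floors cover counting error only. The fits were tested on simulated data with 200 changed genes.

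The members and lists were chosen with earlier results of these data known. The genes named are WWTR1, RIGI, the 10 members, for each list the 4 genes with the smallest adjusted p under 0.05 at a mean of at least 1 CPM and the most abundant gene not past it (for 2 lists that gene is not reported here), and the 3 genes nearest to IFIH1. The interferon genes, JAK1, TRIM25, IFIT1, CCL5 and CXCL10 were added after their values were seen.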

Additional observations from a re-analysis of the deposited data

How the results depend on the processing

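The count of members called was 3, all higher. It was 5 with DESeq2 (5 higher), 7 with the replicate block (6 higher and 1 lower), 5 corrected for length and GC content (4 higher and 1 lower), and 2 to 7 when each library was left out, with 2 to 6 higher and 0 to 1 lower. Of all genes, 22.1% passed in the reported fit, 27.2% with DESeq2, 30.2% with the replicate block (15.3% higher and 14.9% lower) and 27.1% corrected for length and GC content (13.4% higher and 13.7% lower). When each library was left out, 11.2% to 33.7% of all genes passed. The count of pathway genes called was 36 (25 higher and 11 lower). It was 19 to 42 when each library was left out, with 13 to 26 higher and 5 to 16 lower, and 20 at an adjusted p of 0.01 (14 higher and 6 lower). Lower calls were 17 corrected for length and GC content and 7 with limma at either pseudocount. Same-numbered libraries deviated together with correlations of -0.039, 0.053 and 0.192, and not every library correlated best with its own number, so the numbers are not known to pair the libraries. Signs turned for genes that did not pass. Corrected for length and GC content, ATF4 was at 0.052 (log2 fold change). When each library was left out, DHX58 ran from -0.0042 to 0.18, TYK2 from -0.085 to 0.018, ISG15 from -0.013 to 0.11 and ATF4 from -0.115 to 0.061. Of 150 alternative values of the members' fold changes, 129 kept direction and side of the threshold, 7 lost the call, 13 gained it and 1 turned sign. For these results the cause of a change was not tested, except that a fit without 1 library has fewer samples.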

Other observations

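Ratios within a library were formed after the values of the members had been seen, and are given as a description. TICAM1 over MAVS in FPKM, the adaptor of the endosomal against that of the cytoplasmic route, was 0.968, 0.961 and 1.13 with control-siRNA and 0.724, 0.670 and 0.877 with TAZ-siRNA. IFIH1 over DHX58 was 2.43, 2.50 and 2.33 with control-siRNA and 3.15, 2.89 and 3.75 with TAZ-siRNA. IRF7 over IRF3 was 0.267, 0.269 and 0.253 with control-siRNA and 0.209, 0.237 and 0.230 with TAZ-siRNA. None of these 3 ratios overlapped between the groups, whereas ADAR over EIF2AK2 did, with a range of 2.12 to 2.99 in the control libraries and 2.70 to 2.86 in the knockdown libraries. IFIH1 over RIGI and MAVS over IFIH1 were formed as well and did not overlap. How often the ratio of 2 genes does not overlap was not counted over other gene pairs, and 39.6% of all single genes did not overlap in CPM.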
